A study of Rattus norvegicus with 6 samples.

Results

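The arrays described here set the hippocampal RNA of intensely trained rats (IE) directly against that of mildly trained rats (ME). They are 2 of the 6 arrays of the series, chosen by their titles, which pair ME with IE, and they lie on a second slide apart from the 4 arrays that carry sedentary controls (CONT). All animals were male Wistar rats, 11 weeks old per the labels, and were trained on a treadmill for 6 weeks, in sessions of 60 min on 5 days a week. ME rats ran at 15 m/min, below the lactate threshold, after 1 week of habituation. IE rats ran at 40 m/min, above it, after 4 weeks of habituation. The methods count habituation within the 6 weeks, so the weeks left after it differed between the groups. CONT rats did not run. The methods state that slight electric shocks were used to habituate both exercise groups, and later sparingly to keep some IE rats running. IE rats that refused to run were excluded. Tissue was taken 24 or 36 h after the last session per the labels, and 2 days after it per the methods.

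RNA of 5 rats was pooled for each group, so each group is 1 pool. On array 1 ME was labelled with Cy3 and IE with Cy5, and on array 2 the dyes were exchanged. The labels number the pools of the dye swap 1 and 2, while the methods describe 1 pool a group. The methods were followed, and the pair of arrays counts as 1 replicate. Every value is given as log2 IE/ME, so that a negative value is lower in IE. A value written as mean ± SD gives the mean of both arrays and the SD between them, which is technical. No test across animals can be made, and no p-value for a group difference is given.

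The hippocampus holds principal neurons, interneurons and glia, and its surface and clefts are lined by other tissues. Fibroblasts of the meninges and of the larger vessels make fibrillar collagen and small leucine-rich proteoglycans, and they also secrete insulin-like growth factor 2, retinoic acid and prostaglandin D synthase. The choroid plexus, an epithelium in the ventricles, makes the cerebrospinal fluid and is the main source of transthyretin in the brain. Ependymal cells line the ventricles and move the fluid with motile cilia. In pooled tissue RNA, fewer cells of a type and less RNA per cell cannot be told apart.

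Of 41012 probes, 25803 were well above background in each of the 4 readings (2 dyes on 2 arrays), and these are read first. They represented 21972 genes, each gene taken from its brightest such probe. Of the 20 marker genes of hippocampal principal neurons on the array, 18 were well above background, among them Camk2a, Neurod6, Wfs1 and Fibcd1, while Prox1 and Lct were not. Before turning the sign, the Cy5/Cy3 ratios of both arrays correlated with r = 0.70 over the probes well above background, and log2 IE/ME therefore correlated with r = -0.70. Only 26.7% of these probes had the same sign of IE/ME on both arrays. A dye effect that belonged to the probe was thus larger than most differences between the pools. Its SD over probes was 0.26 on the log2 scale, whereas the mean of both arrays, in which it cancels, had an SD of 0.11 around a median of 0.00. The central 95% of the means lay between -0.21 and 0.23, and the central 99% between -0.37 and 0.36. The spread narrowed with brightness, from ± 0.31 for the dimmest of 4 equal classes to ± 0.10 for the brightest.

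A call required a Cy5/Cy3 ratio of 1.5 or more on 1 array and of 0.75 or less on its dye swap, and a software p below 0.01 each time. By this rule 25 probes were called lower in IE (0.061% of 41009 with a value on both arrays) and 5 higher (0.0122%), together 0.0732%. Of these, 22 lower probes (0.0853%) and 5 higher probes (0.0194%) were well above background in all 4 readings. The 22 probes represented 19 genes or transcripts (0.0865% of genes), and the 5 probes represented 5 (0.0228%). In comparison, 317 probes well above background passed these limits for a dye rather than a group, Cy5 or Cy3 being the brighter one each time. A mean change of at least 1.5-fold, with no limit on p, was reached by 37 probes lower in IE (0.143%) and 14 higher (0.0543%).

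**Figure D1:**
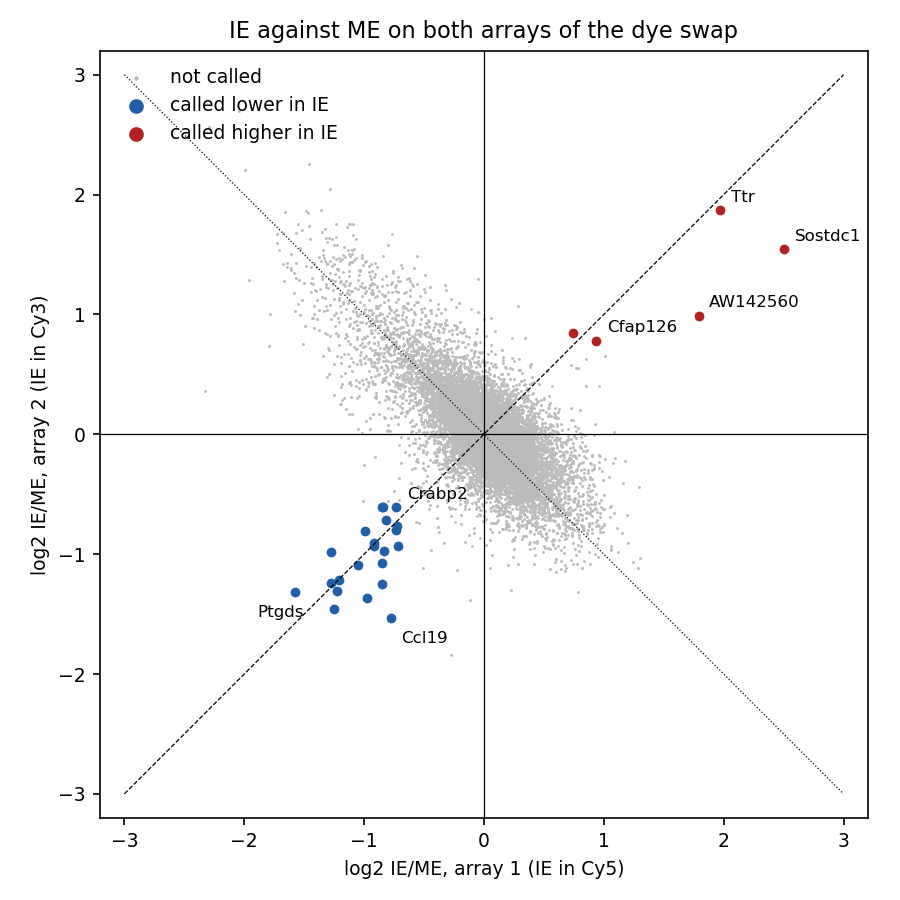
Each point is a probe that was well above background in all 4 readings. The x axis gives log2 IE/ME on array 1 and the y axis the same on array 2, the dashed line marks equal values, the dotted line opposite values, and colours mark called probes. Most probes scatter along the dotted line (r = -0.70), whereas the 22 probes called lower and the 5 called higher lie along the dashed line, away from the bulk.

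The fall of the largest size among these probes was that of Ptgds, the prostaglandin D synthase of the meninges and of oligodendrocytes, also known as a carrier protein of the cerebrospinal fluid. Its processed signal was 12247 in IE and 36544 in ME on array 1, and 11610 in IE and 28827 in ME on array 2. IE was the dimmer channel with either dye, and log2 IE/ME was -1.58 and -1.31, a mean of -1.44 ± 0.19 or a 2.72-fold lower level. The other 7 members of the prostaglandin list that were measured lay between -0.16 and 0.04, including the cyclooxygenases Ptgs1 (-0.07) and Ptgs2 (0.04). Ptgds was thus the called member of its pathway.

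The chains of type I and type III collagen were also called lower in IE. Col1a2, which encodes a chain of type I collagen, was measured by 2 probes, and the signals of the brighter one were 678 and 715 in IE against 1565 and 1662 in ME. Its log2 IE/ME was -1.21 on array 1 and -1.22 on array 2, and the dimmer probe gave -0.92 and -0.91. Col3a1, the chain of type III collagen, read 126 and 135 in IE and 306 and 318 in ME, a mean of -1.26 ± 0.03, which became -0.83 without background subtraction. For both genes the arrays differed by far less than the groups.

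Col1a1, the other chain of type I collagen, had 3 probes that did not give the same value. The called probe (chr10:83652547-83652606) read 368 on each array in IE and 762 and 782 in ME, with a mean of -1.07 ± 0.03. The neighbouring probes, which end upstream of it, gave -0.25 ± 0.08 and -0.05 ± 0.16 and were not called. Of the 23 collagen genes measured, 3 were called lower and none higher, against 0.0865% and 0.0228% of all genes. On both arrays 5 were lower and 7 higher, against 12.2% and 14.4% of all genes, and the list's median was 0.00. Col18a1, a collagen of basement membranes, was at -0.32 ± 0.12, whereas Col4a1 and Col4a2, the main chains of vascular basement membranes, were at 0.04 and 0.23. Other fibrillar chains were not lower, with Col5a2 at 0.13 and Col11a2, the brightest collagen probe, at 0.16.

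Some probes of these genes and of Tpm2, a tropomyosin described further on, are shown. For Col1a1 they are the probes that were not called. The called Col1a1 probe and the brighter Col1a2 probe are neither shown nor aligned. Each sequence is the 60 bases printed on the array 5′ to 3′ as the files give them. Positions on the rn3 assembly are from the array's annotation. Capitals in the Col1a1 probes shown mark bases identical to the Col3a1 probe in the best alignment without gaps. These are 29 of 41 aligned bases for the probe at -0.05 and 21 of 26 for the probe at -0.25. The Ptgds and Tpm2 positions span 470 and 601 bases, more than the length of the probe.
Ptgds, chr3:3633310-3633779, minus strand: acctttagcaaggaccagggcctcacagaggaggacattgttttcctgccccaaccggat
Col3a1, chr9:44318879-44318938, plus strand: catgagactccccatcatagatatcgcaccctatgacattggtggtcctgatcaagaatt
Col1a2 (dimmer probe), chr4:29463744-29463803, plus strand: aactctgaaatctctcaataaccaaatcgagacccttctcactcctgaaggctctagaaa
Col1a1 (-0.05), chr10:83652273-83652332, plus strand: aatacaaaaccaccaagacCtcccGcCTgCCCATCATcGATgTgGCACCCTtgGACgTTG
Col1a1 (-0.25), chr10:83652326-83652385, plus strand: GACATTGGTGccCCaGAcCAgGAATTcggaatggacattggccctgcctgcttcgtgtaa
Tpm2, chr5:59998142-59998742, minus strand: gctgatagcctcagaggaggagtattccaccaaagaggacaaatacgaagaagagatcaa

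Small leucine-rich proteoglycans bind collagen fibrils and set their width. Ogn (osteoglycin) read 392.0 and 388.1 in IE against 933.4 and 1065.7 in ME with its brighter probe, a mean of -1.35 ± 0.15, and its other probe gave -1.13 ± 0.21, or -0.68 without background subtraction. Fmod (fibromodulin) read 499 and 486 in IE against 890 and 956 in ME, a mean of -0.91 ± 0.10. Both were called. Omd (osteomodulin) had a mean of -0.70 ± 0.37, with -0.44 on array 1 and -0.96 on array 2. It met the fold limits of a call but not the p threshold, and was not called. Its mean became -0.37 without background subtraction. Lum, Dcn and Bgn, which encode lumican, decorin and biglycan, were at -0.48, -0.33 and -0.29. In total 2 of 8 measured members were called lower and none higher, against 0.0865% and 0.0228% of all genes. The median was -0.41 beside 0.00 for all genes, and 6 of 8 were lower on both arrays, which holds for 12.2% of all genes.

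Growth factor and retinoid genes included further called members. Igf2, a growth factor that the meninges and choroid plexus secrete, read 1356 and 1318 in IE and 2558 and 2511 in ME, a mean of -0.92 ± 0.01. It was the called member of the 12 measured genes of the insulin-like growth factor system, whose median was -0.03. The binding protein genes Igfbp2 (-0.65 ± 0.12), Igfbp6 (-0.28) and Igfbp4 (-0.21) were lower on both arrays but not called. Igf1 (-0.02) and the receptor genes Igf1r (0.03), Igf2r (-0.04) and Insr (-0.01) were near the median of all genes. Of the retinoic acid genes, Crabp2, which encodes a binding protein that carries the acid to its nuclear receptors, was called at -0.67 ± 0.09, with signals of 361 and 396 in IE and 600 and 605 in ME. Aldh1a2, the enzyme that makes the acid in the meninges, was at -0.63 ± 0.53, lower on both arrays by unequal amounts, became -0.14 without background subtraction, and was not called. Rbp4, the retinol carrier, was at -0.31. The remaining retinoid genes measured lay between -0.19 and 0.16.

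Transporters found in meningeal cells followed. Slc6a13, a transporter of GABA and taurine, read 103.3 and 100.1 in IE and 186 and 211 in ME, a mean of -0.96 ± 0.16 that became -0.50 without background subtraction. Slc13a3, a carrier of dicarboxylates, read 1758 and 1699 in IE and 2900 and 2888 in ME, a mean of -0.74 ± 0.03. All readings of IE were below those of ME for both genes.

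The genes called in the preceding groups belong to a list of 28 markers of meningeal and perivascular fibroblasts on the array, of which 24 were well above background. Like the other lists, it was chosen with earlier results of these data known, so the shares beside it are descriptive and test nothing. In that list 10 genes were called lower and none higher, against 0.0865% and 0.0228% of all genes. On both arrays 23 were lower, against 12.2% of all genes, and 22 had a mean of -0.2 or less, which 3.02% reached. The median was -0.64, and the members that were not called included Pcolce (-0.68), which helps to process collagen, Gjb2 (-0.49), the transcription factor Tbx18 (-0.45), Mgp (-0.44) and Mrc1 (-0.43), a receptor of perivascular macrophages. Foxc2 was the exception at 0.15 ± 0.26, although its dimmer probe gave -0.78 ± 0.32. The members' summed signal was 25423 and 24888 in IE and 56897 and 49390 in ME, and without Ptgds 13176 and 13278 against 20353 and 20563. Of the 4 markers that were not well above background throughout, Cdh1 was called lower, Aspn gave -0.73 and -0.67, Slc22a6 gave -0.25 and -0.09, and Dpt was well above background in no reading. These are markers of tissue that borders the hippocampus, and how much of that tissue each pool held was not tested.

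Other called genes were not on that list. Nupr1, which encodes a stress-inducible chromatin protein, read 74 and 77 in IE and 173 and 190 in ME, a mean of -1.26 ± 0.06, which became -0.70 without background subtraction. Thbs2, a matrix glycoprotein, was at -0.83 ± 0.15, while its other probe, dim in part, gave 0.28 and -1.22. Ch25h, a hydroxylase of cholesterol, was at -0.77 ± 0.04. Without background subtraction Thbs2 became -0.41 and Ch25h -0.38. Ccl19, a chemokine of lymphoid tissue, was lower on both arrays but by unequal amounts, -0.78 and -1.54. RGD1307559, described on the array only as a hypothetical protein, was at -0.90 ± 0.13, and 2 sequences without a gene, AW916070 and TC566757, were at -1.17 ± 0.28 and -1.05 ± 0.28, which became -0.63 and -0.43 without background subtraction.

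Genes of the contractile apparatus, mainly of smooth muscle, made up a further set, listed after its values had been seen. Tpm2, a tropomyosin, was called with 2 probes at -0.73 ± 0.18 and -0.72 ± 0.17, the brighter of which read 943 and 1053 in IE and 1690 and 1601 in ME. Without background subtraction the dimmer of them became -0.35, and another probe, not called, gave -0.39 ± 0.27. The other called member, Tnnt2, encodes the cardiac troponin T, a protein of striated rather than smooth muscle. Tnnt2 read 150 and 147 in IE and 264 and 241 in ME. Its mean of -0.76 ± 0.07 became -0.45 without background subtraction. Tagln (-0.63 ± 0.12), Des (-0.54), Pln (-0.45) and Myl9 (-0.44) were lower on both arrays but not called. Of 13 measured genes 7 were lower on both arrays (12.2% of all genes) and 1 was higher (14.4%). The median of the means was -0.15, and the medians of the single arrays were -0.46 and -0.29. Myh11, the smooth muscle myosin, was the higher one at 0.12 with its brightest probe, while its other probe gave -0.81 ± 0.42. Endothelial and mural markers other than Tagln lay between -0.25 (Vwf) and 0.20 (Flt1), with Cldn5 at -0.01 and Rgs5 at 0.04. The median of all 18 was -0.07.

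In 3 called probes a reading was not well above background, and their folds rest on dim signals. Defb1, an antimicrobial beta-defensin, read 5.8 and 5.2 in IE, both readings not well above background, and 22.7 and 46.9 in ME. On the background-subtracted signals, and set against the dimmest ones that were well above background, Defb1 was at least 2.09-fold lower in IE. This bound does not hold without background subtraction, where its log2 IE/ME of -2.56 became -0.39. Cdh1, the epithelial cadherin, read 19.6 and 10.3 in IE and 41.0 and 72.6 in ME, a mean of -1.94 that became -0.44 in the same way. TC555275, a sequence without a gene, read 23.7 and 27.3 against 50.3 and 53.8, and its mean of -1.03 became -0.19.

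Of the 5 probes called higher in IE, those of the choroid plexus differed most. Sostdc1, a secreted inhibitor of BMP and Wnt signalling, (chr6:55073434-55073493 on rn3) read 297 and 270 in IE and 52.4 and 92.4 in ME. Its log2 IE/ME was 2.50 and 1.55, a mean of 2.02 ± 0.68 or a 4.07-fold higher level, the highest of all probes well above background. Ttr, which encodes transthyretin, the carrier of thyroxine and retinol-binding protein, read 3913 and 4113 in IE and 997 and 1124 in ME, a mean of 1.92 ± 0.07 or 3.79-fold. Both genes had every IE reading above every ME reading. Without background subtraction the mean was 1.15 for Sostdc1 and 1.82 for the brighter Ttr.

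The rest of the choroid plexus list moved less. Otx2, a transcription factor of this epithelium, read 87.9 and 90.2 in IE and 48.7 and 58.5 in ME, a mean of 0.74 ± 0.16 that became 0.21 without background subtraction, and was not called. Its dimmer probe gave 0.16. Aqp1, the water channel, was at 0.42, Folr1, the folate receptor, at 0.38, and Enpp2 (autotaxin) at 0.23. Kcnj13, a potassium channel of the same cells, gave 0.17 and -0.42. Slc22a8 (-0.37) and Ecrg4 (-0.28) were lower on both arrays. Of the 29 markers on the array 15 were well above background. Of these, 2 were called higher and none lower, against 0.0228% and 0.0865% of all genes. In total 7 were higher on both arrays and 2 were lower, against 14.4% and 12.2% of all genes, and the median was 0.12. The summed signal of the 15 genes was 7968 and 8122 in IE and 4370 and 4709 in ME, and without Ttr 4055 and 4009 against 3373 and 3585. Of the 14 dim markers, Clic6 (1.17 and 0.58), Kl (1.18 and 0.10) and Mfrp (0.14 and 1.64) were higher on both arrays and Car12 (-0.16 and -0.42) was lower. Steap1, F5, Rdh5, Slc4a5 and Lmx1a changed sign between the arrays, whereas Kcne2, Prlr, Sulf1, Tmem72 and Cldn2 were well above background in no reading. How much choroid plexus each pool held was not tested.

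Cfap126, a gene of motile cilia, was called at 0.86 ± 0.11, with signals of 221 and 207 in IE and 116 and 121 in ME. Its second probe gave 0.38 ± 0.05, and the called probe gave 0.52 without background subtraction. RGD1564871, described on the array as similar to a thioredoxin domain protein, read 169 and 177 in IE and 101 and 98.4 in ME, a mean of 0.79 ± 0.07. Its other probe was well above background in no reading. AW142560, a sequence without a gene, was called at 1.39 ± 0.57. Without background subtraction these became 0.47 and 0.84.

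A list of motile cilia genes was then written with these values in view. Of its 58 measured genes 26 were higher on both arrays and 3 were lower, against 14.4% and 12.2% of all genes. In the list 1 gene was called higher (0.0228% of all genes), and 15 had a mean of 0.2 or more, which 3.97% of all genes reached. After Cfap126 the members with the highest means were Dynlrb2 (0.63 ± 0.32), a dynein light chain, and Cfap161 (0.44), Cfap43 (0.41) and Cfap144 (0.40), proteins of cilia and flagella. Foxj1, the transcription factor that turns on motile cilia genes, was at 0.34, and the dynein heavy chain genes Dnah12 and Dnah1 were at 0.33 and 0.30. The median was 0.10, and the values of single genes other than Cfap126 were below the limits of a call. The summed signal, 25142 and 25807 in IE and 24164 and 24598 in ME, differed little, and the brightest member, Cfap20, was at -0.04.

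**Figure D2:**
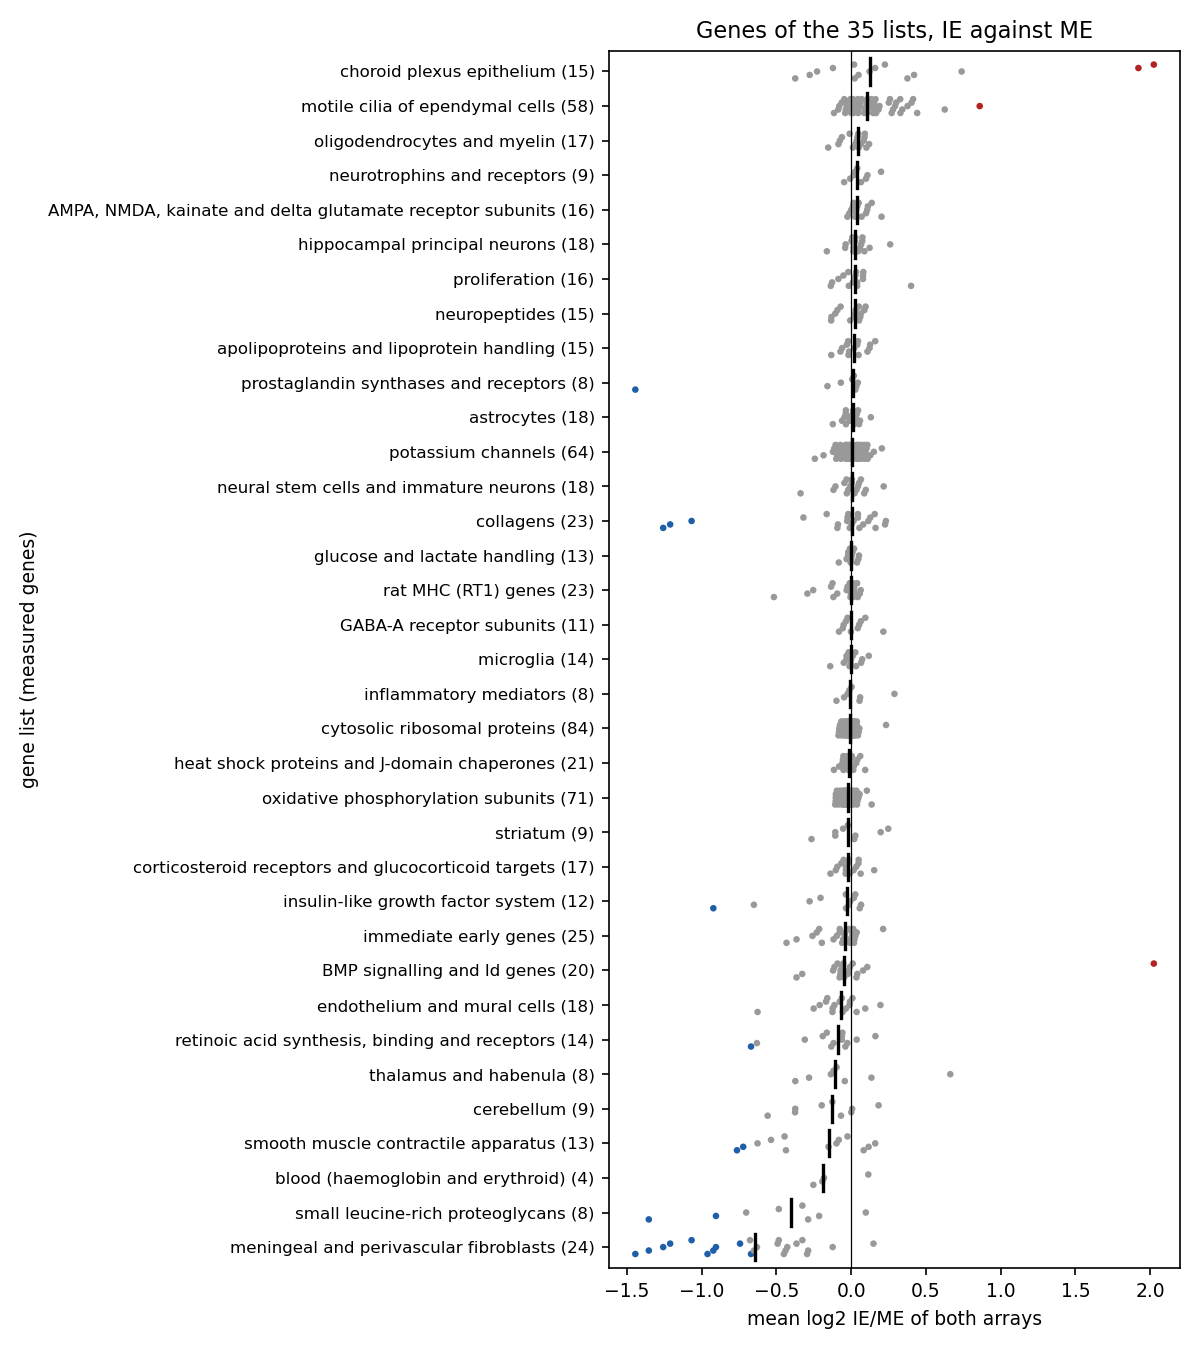
Each point is a gene, placed on the x axis by its mean log2 IE/ME over both arrays, in the list named at the left with the number of measured genes in parentheses. Black bars are medians, blue points are genes called lower in IE and red points genes called higher. The medians range from -0.64 for the meningeal and perivascular fibroblasts to 0.12 for the choroid plexus epithelium, and most lists lie close to 0.

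Lists for cells within the hippocampus stayed near the median of all genes. The 18 markers of principal neurons had a median of 0.03 and lay between -0.16 (Amigo2) and 0.26 (Dsp, a desmosome gene of granule cells). Astrocytes had a median of 0.01 with Gfap at -0.01 and Aqp4 at -0.05. Oligodendrocyte genes had a median of 0.04, including Mbp at 0.05, and microglial genes one of 0.00, including Aif1 at 0.00 and Trem2 at 0.07. None of these genes was called. Among markers of stem cells and immature neurons, Dcx (0.02), Nes (0.00) and Sox2 (0.05) were near 0. Vim, also made by fibroblasts and endothelium, was at -0.34, and the list's median was 0.00. The 16 proliferation genes measured had a median of 0.03, with Rrm2 highest at 0.40 and not called.

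Genes known for their link to exercise or to stress differed little. Of the neurotrophin list none of 9 measured members was called. Its median was 0.04 and Bdnf gave -0.03 and 0.02 with its brighter probe and 0.10 and -0.03 with the other. Vegfa was at 0.13 with its brighter probe. The 17 corticosteroid receptor and target genes had a median of -0.02, with the glucocorticoid receptor gene Nr3c1 at -0.04, Fkbp5 at 0.05 and Sgk1 at -0.04. Heat shock genes had a median of -0.02, and genes of glucose and lactate handling one of 0.00, with the lactate transporter genes Slc16a1 at 0.01 and Slc16a3 at 0.05.

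Immediate early genes report recent neuronal activity. None of the 25 measured was called. A mean of -0.2 or less was found for 5, against 3.02% of all genes. Among them were Klf4 (-0.43), Arc (-0.37), Fos (-0.26) and Egr2 (-0.23). On both arrays 7 were lower and 2 higher, against 12.2% and 14.4% of all genes. Arc was lower on both arrays, -0.30 and -0.43. Egr1 (-0.04), Jun (-0.01) and Homer1 (0.02) were near 0, and Fosb was at 0.21. Klf4 is also a gene of vascular cells.

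Receptor and channel families gave no called gene. Subunits of AMPA, NMDA, kainate and delta receptors had a median of 0.04 and a highest value of 0.20 (Grin2d). GABA-A receptor subunits had a median of 0.00, and 64 potassium channel genes one of 0.01. Gabra6, a subunit of cerebellar granule cells, read 4.4 and 5.0 in IE and 14.7 and 46.4 in ME, was well above background in 1 of 4 readings and was not called. Among cerebellar markers Pcp2 was lower on both arrays (-0.59 and -0.53) but not called, and the median of the 9 measured was -0.13, or -0.36 with the 9 dim markers included. Thalamic and habenular markers had a median of -0.11, with Tnnt1, a troponin T, at 0.66 and Nexn at -0.37, striatal ones -0.02 with Ppp1r1b at 0.25, and the 4 blood genes -0.19 with Hbb at -0.18. None was called. The part that neighbouring brain regions or blood had in any value was not tested.

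The broad housekeeping families were flat. The 84 ribosomal protein genes had a median of -0.01 and the 71 genes of oxidative phosphorylation one of -0.02. Neuropeptide genes had a median of 0.02, apolipoprotein and lipoprotein genes one of 0.02 with Apoe at -0.06, inflammatory mediators one of -0.01, and the 23 rat MHC genes one of 0.00. RT1-Bb, a class II gene, was the lowest MHC gene at -0.52, with -0.45 and -0.59, and was not called. BMP signalling genes had a median of -0.05, and Sostdc1 was their called member.

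Of the 12 genes, internal controls aside, with RT-PCR primers listed by the study, 5 were called in this comparison, namely Defb1, Igf2 and Crabp2 lower in IE and Ttr and Sostdc1 higher. Over all probes 0.0732% were called, but the study chose these genes in part for large changes on arrays of the same pools, so nothing is read from the count. Aldh1a2 and Gabra6 are given above. Bmp2 gave 0.24 and -0.89 with the probe well above background. Cdkl3 was nearly equal in both groups, with signals of 223 and 225 in IE and 217 and 217 in ME. Irs1 (-0.02 and -0.08), Bcl2 and Tnf were not well above background throughout, and the Bcl2 probes changed sign with the dye.

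The arrays of the first slide place these differences against CONT. They carry the same ME and IE groups and are thus not independent of the IE/ME arrays, so their values are set side by side without a test. For the 22 probes called lower in IE and well above background, mean log2 ME/CONT lay between 0.43 (Tnnt2) and 1.34 (Ptgds), with a median of 0.95, and mean log2 IE/CONT between -0.28 (Nupr1) and 0.19 (TC566757), with a median of 0.00. Ptgds, for instance, was at 1.34 in ME and -0.11 in IE, Igf2 at 1.08 and 0.11, and Col1a2 at 1.21 and -0.01. The 22 probes thus lay above CONT in ME and close to the CONT level in IE. Defb1, not among them, was at 2.95 in ME against CONT, with 2 of 4 readings well above background. On the IE/CONT arrays it had no such reading, and the software set the ratio to 0. Its level in IE against CONT was therefore not measured.

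**Figure D3:**
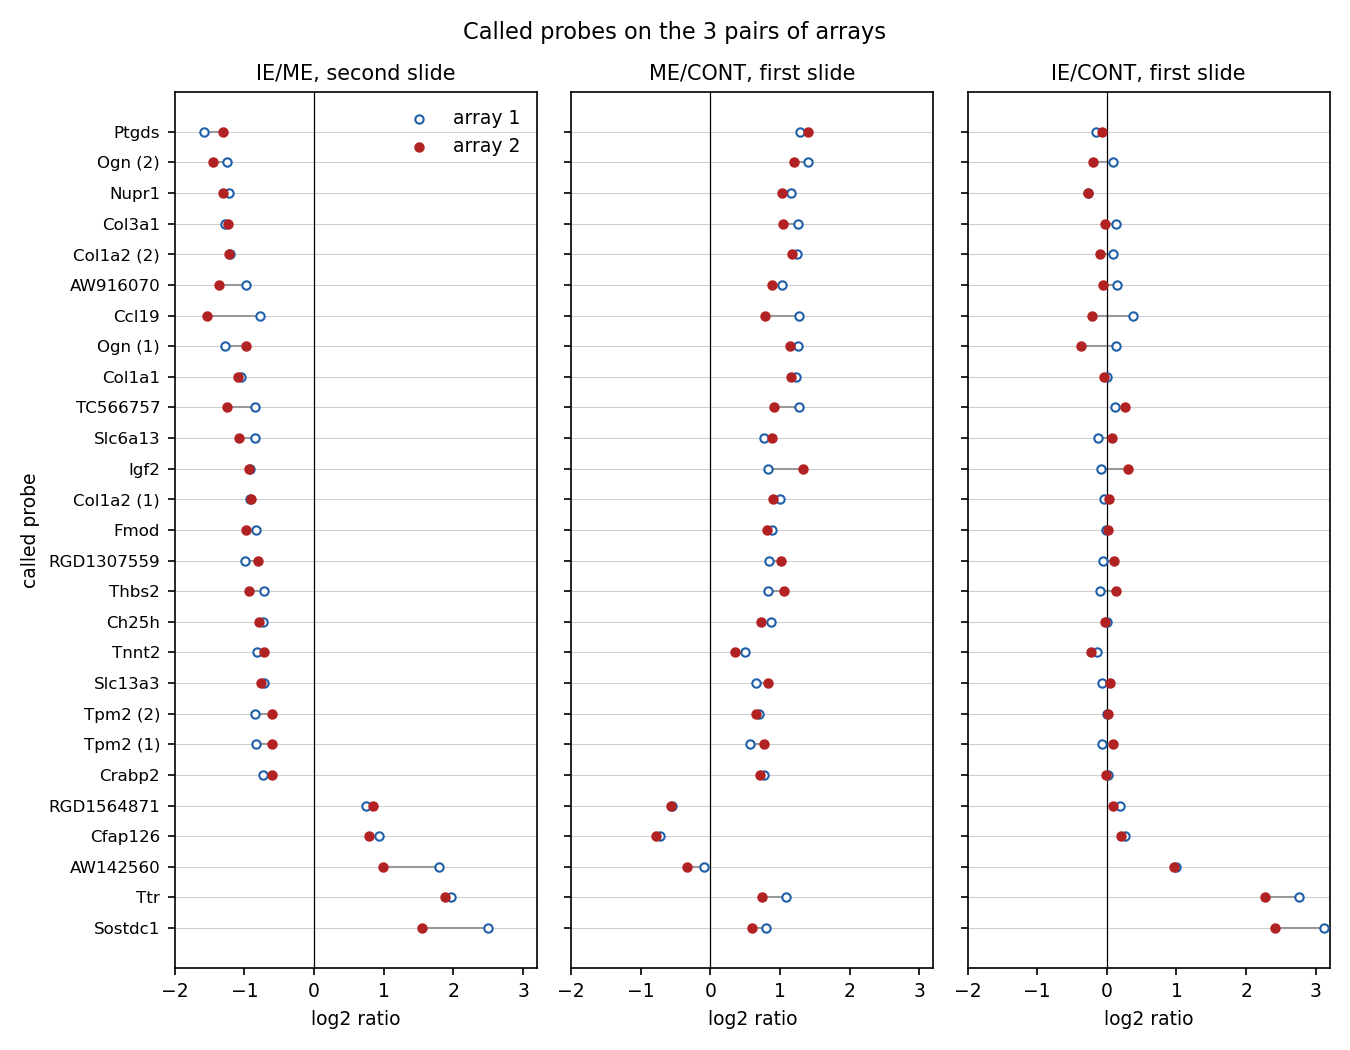
Rows are the 27 called probes well above background, ordered by mean log2 IE/ME, with a number after the name where a gene has several. Panels give log2 IE/ME, ME/CONT and IE/CONT on the x axis, with open blue and filled red points for array 1 and array 2 of each dye swap joined by a line. In the 22 upper rows the ME/CONT points lie at 0.36 or above while the IE/CONT points lie around 0, and in the 2 lowest rows both groups lie above CONT and IE lies higher.

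The probes called higher in IE fell into different patterns. Ttr was at 0.91 in ME and 2.51 in IE against CONT, and Sostdc1 at 0.69 and 2.76, so that both groups lay above CONT and IE further. Otx2 was at 0.07 and 0.89 with its brighter probe and at 0.32 and 0.15 with the dimmer one. Kcnj13, in contrast, was at 1.73 and 2.09 against CONT, which left little difference between IE and ME. The called Cfap126 probe was at -0.76 in ME and 0.24 in IE, and RGD1564871 at -0.56 and 0.14, so that ME accounted for most of the distance. The second Cfap126 probe was at -0.08 in ME and 0.08 in IE. The motile cilia list had a median of -0.10 in ME and 0.02 in IE, and the fibroblast list 0.72 in ME and -0.01 in IE.

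**Figure D4:**
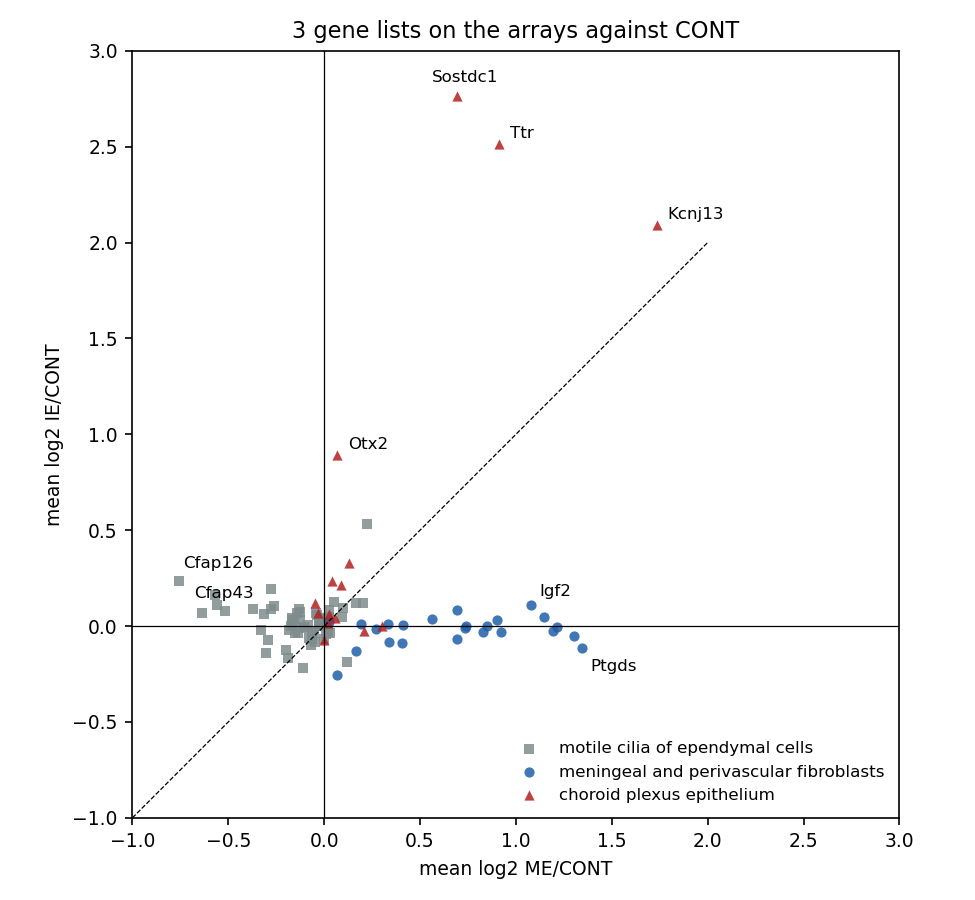
Points are genes of 3 lists, with mean log2 ME/CONT on the x axis, mean log2 IE/CONT on the y axis and a dashed line of equal values. Fibroblast markers (circles) extend to the right along the x axis, up to 1.34 for Ptgds, Sostdc1, Ttr and Otx2 (triangles) lie above the dashed line, and Cfap126 and Cfap43 (squares) lie to the left of 0.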

How the data were processed

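RNA of 5 rats a group was compared on 2-colour 4x44K Agilent rat arrays. Per the file headers, the IE against ME slide was read with scanner G2505C and extracted with Feature Extraction 11.0.1.1, and the slide with CONT with G2505B and 9.5.3.1, the version in the submitters' notes. The authors deposited for each spot the log10 ratio of Cy5 over Cy3 after background subtraction and dye normalization, the software's p-value for that ratio, and the processed signal, an intensity on a linear scale. The value table deposited by the authors holds the log10 ratio of processed signals oriented so that IE is over ME on both arrays. It matched the processed signals at 100.0% of spots within 0.001, with column medians of 0.03 and 0.00 on the log2 scale. At 1311 and 1510 spots the software had set its own ratio to 0.

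Control spots (1639 of 45018) and 92 spots per array marked as outliers were left out. No spot was saturated. The ratios left for a probe (263 probes had 10 spots) were averaged and turned to log2 with IE over ME. Both channels were well above background at 68.0% and 66.5% of spots. With 1 pool a group, the number of pools limits what can be said of a group difference. The number of arrays bears only on technical spread. The call followed the fold range and p threshold of the methods. A fold for a gene dim in 1 group was bounded after loess and Aquantile normalization of the channels.

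Genes were named by current symbol through GRCr8 (20122 of 41012 probes) and otherwise by array name. The members, lists and tests were chosen with earlier results of these data known. Genes named are the 10 largest changes in each direction among called probes well above background, called probes dim in the lower group, the called or leading members of each list, and genes measured by RT-PCR. Exceptions are single members quoted for their role, the other called probes and the cilia and smooth muscle lists, chosen after values were seen. Alternatives covered the call rule, the filter on dim probes, normexp (offset 50) or no background subtraction with loess in limma 3.58.1, the value table, outlier spots, single arrays, a joint fit of 6 arrays and the indirect route through CONT.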

Additional observations from a re-analysis of the deposited data

Results flagged for a closer look

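In 7 called probes log2 ME/CONT and log2 IE/CONT had opposite signs, on both arrays of each dye swap. Called probes were picked for a difference between IE and ME, and no share over all probes is given. Nothing is therefore read from the count. The rule used the sign alone, and some IE/CONT values lay near 0, such as -0.0017 and -0.0467 for Col1a1. In each case the difference was not tested, since each group is 1 pool. Mean log2 ME/CONT was 1.34 for Ptgds, 1.09 for Nupr1, 1.19 for the called Col1a1 probe and 0.43 for Tnnt2, against log2 IE/CONT of -0.11, -0.28, -0.02 and -0.18. The opposite arrangement was seen for RGD1564871 (-0.56 in ME and 0.14 in IE), the called Cfap126 probe (-0.76 and 0.24) and AW142560 (-0.22 and 0.98). The second Cfap126 probe gave -0.08 and 0.08.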

How the results depend on the processing

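The number of called probes depended on the rule. Without the p threshold 74 probes were higher in IE and 361 lower, in place of 5 and 25. With the p threshold and a mean change of 1.5-fold the counts were 95 and 70. The p threshold was dropped as well where the background correction was replaced, since those fits carry no p and are set against the 74 and 361 probes of the fold range alone. Loess with no background subtraction then gave 3 and 15 probes, and normexp gave 6 and 18. A mean change of 1.5-fold without p among probes well above background, chosen after seeing the data, gave 14 and 37. On single arrays, where the dye effect does not cancel, 1232 to 1652 probes were higher and 1574 to 1940 lower. The 1.5-fold limit on each array, the deposited value table and keeping outlier spots each gave 5 and 25. The choroid plexus median of 0.12 became 0.17 without the filter on dim probes, 0.10 with normexp, 0.070 without background subtraction and 0.17 to 0.20 on single arrays. The fibroblast median of -0.64 became -0.46 with normexp, -0.44 without background subtraction, -0.56 as a mean over a gene's probes and -0.67 to -0.65 on single arrays. The cerebellar median of -0.13 became -0.36 with dim probes included. The smooth muscle median of -0.15 became -0.28 with dim probes included, -0.35 as a mean over a gene's probes, and -0.46 and -0.29 on single arrays. The cause of these changes was not tested. All 30 called probes kept their direction under the 8 alternatives for their values. The single arrays could not change it, because a call requires the same direction on each array. The value table and keeping outlier spots left the values unchanged, and the joint fit contains the same arrays. By size, 17 called probes moved by over 1.5 times without background subtraction (median ratio to the reported log2 value 0.603) and 9 with normexp (0.744). Of the 71 values of single named probes compared, 40 moved beyond the SD between arrays without background subtraction, 30 with normexp, 22 through the indirect route and 13 in the joint fit. No paired analysis was possible because only 1 pool was made per group. Signal over background limits the 3 called probes with a dim reading.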
